A study of Drosophila melanogaster with 18 samples.

Results

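Mediator and TFIID are the large protein complexes through which RNA polymerase II is brought to promoters, and their subunit genes were followed here through the first hours of fly development. The genes were chosen by name: every row of the expression table called MED or Taf followed by a number, plus kto, skd, CycC and Tbp. This gave 42 of the 16680 genes in the table, with 25 MED genes, 13 Taf genes and those 4. All 42 matched a current symbol of the Ensembl annotation (BDGP6.54, the dm6 assembly), all are annotated as protein-coding, and all 42 passed the filter on low counts that left 8467 genes to test. Subunits that carry other names in the table (Cdk8, ix for MED29, e(y)1 for Taf9 and bip2 for Taf3) fall outside the rule and are given beside the members.

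TFIID consists of the TATA-binding protein Tbp and a set of Tbp-associated factors (Tafs). It recognises the core promoter and starts the assembly of the preinitiation complex. Mediator joins transcription factors bound at enhancers to RNA polymerase II, and is divided into a head, a middle and a tail, a scaffold subunit (MED14), and a kinase module that docks reversibly and holds kto (Med12), skd (Med13), CycC and the kinase Cdk8. The Drosophila egg carries a maternal supply of the mRNAs of the general transcription machinery, and during zygotic genome activation maternal RNAs are cleared while the embryo begins to make its own. E(z) is the methyltransferase of H3K27me3, and CBP, encoded by nej, is the acetyltransferase of H3K27ac and a coactivator.

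Bulk RNA-seq was available for 18 libraries in 6 groups of 3: wild type (WT), a knockdown of E(z) (E(z)-KD) and one of CBP (CBP-KD), each before cycle 9 (bfc9, before the onset of transcription) and at cycle 14 (c14, zygotic genome activation). Embryos were laid for 1 h at 25 °C, aged and staged by hand. Knockdown came from short hairpin RNAs driven in the female germline by the maternal driver matα4-GAL-VP16, from a TRiP line for E(z) and a line made in the laboratory for CBP, so that the depletion starts from the mother. WT embryos came from the TRiP control line. RNA was taken from whole embryos and depleted of ribosomal RNA. The titles say total RNA and the molecule field says nuclear RNA, and the values are described here as total RNA, following the methods. Cycle 14 knockdown embryos were those that could be staged as such, so the groups hold selected embryos. Nothing in the labels says how many parents or cages stand behind a replicate, so the p-values measure the spread between these libraries.

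Library totals lay between 6243486 and 18262569 estimated counts, and the shallowest library was replicate 1 of WT at cycle 14. The targeted transcripts were low where the labels say so. nej stood at 1071 to 1181 CPM (a gene's share of the counts of its library, with library sizes scaled by the trimmed mean of M values, TMM) in WT and 231 to 293 in CBP-KD before cycle 9, and at 1495 to 2216 against 528 to 657 at cycle 14. E(z) stood at 97.9 to 106 CPM in WT and at most 0.269 in E(z)-KD before cycle 9, and at 31.9 to 34.6 against 3.51 to 5.45 at cycle 14. E(z) was also low in CBP-KD at cycle 14, at 7.26 to 14.9 CPM (log2 fold change -1.66 from WT, adjusted p = 6.13e-07 in edgeR), so that these libraries are low in both targets. All 24 zygotic blastoderm markers reached 1 CPM in some library of each group at cycle 14, and the 17 follicle cell and eggshell markers summed to at most 3.32 CPM. Before cycle 9, 16 of the 24 zygotic markers reached 1 CPM in some library of CBP-KD, in which replicate 3 had the highest sum (692 CPM), against 3 in WT and 5 in E(z)-KD. The 9 maternal markers summed to 2701 to 3434 CPM in WT at cycle 14, to 5993 to 6390 in E(z)-KD and to 6080 to 7010 in CBP-KD, and the zygotic markers to 10780 to 12800, 8402 to 10110 and 4045 to 5700. These sums separate the same groups as the cycle 14 results below, and their part in those results was not tested.

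Transcripts of the subunits were present at very unequal levels. Per length, in TPM (counts per exon length, as a share of the library) within WT before cycle 9, the median over the 42 genes was 60.8 TPM, and 40 of 42 reached 10 TPM. The highest was MED26, a subunit that in human cells links Mediator to elongation factors, at 270 ± 24.6 TPM (SD, n = 3), followed by MED21 of the middle module at 215 ± 32.9 TPM and skd at 186 ± 16.3 TPM. The ranges of MED21 and skd overlap, though MED21 was the higher within each library (252, 202 and 191 TPM, against 205, 177 and 175 or 176 for skd). MED25, an activator-binding subunit, stood at 21.5 ± 0.319 TPM, and within the kinase module kto was at 43.0 ± 4.28 TPM. Taf12L, a paralogue of Taf12 known from the testis, was near the floor at 1.65 ± 0.343 TPM.

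**Figure D1:**
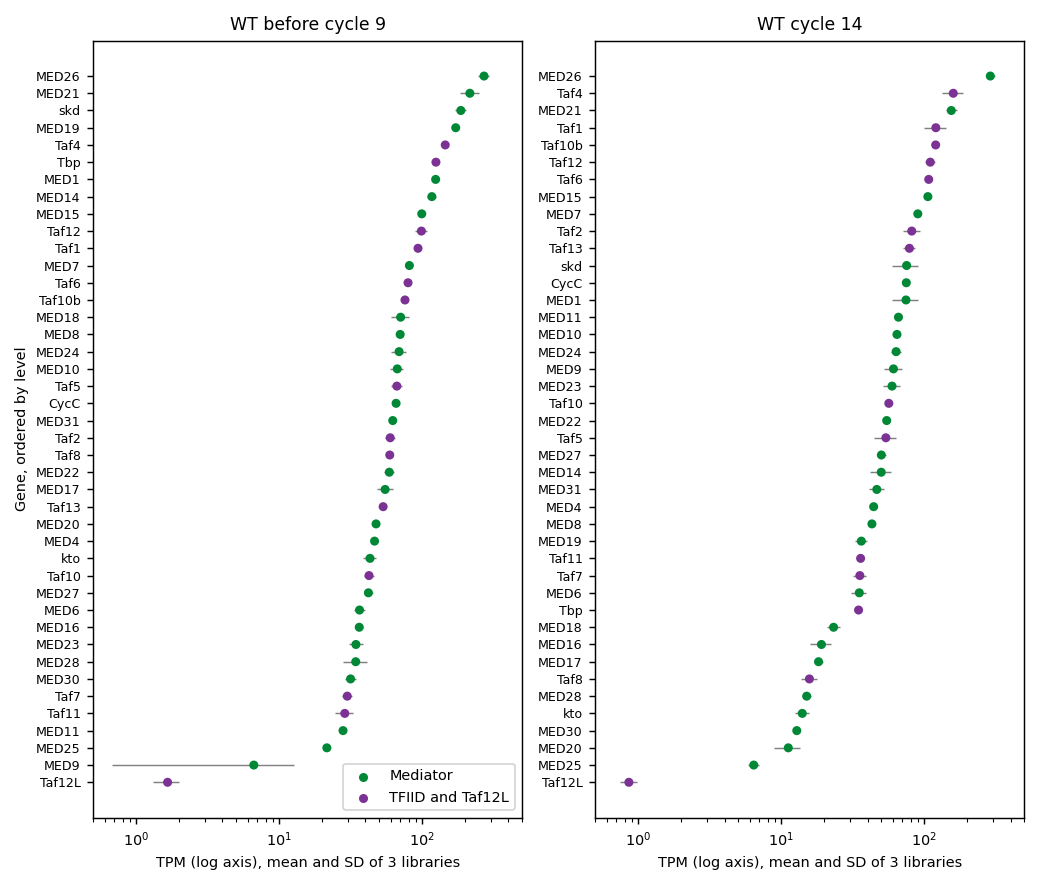
Level of each of the 42 genes in WT before cycle 9 (left) and at cycle 14 (right), in TPM on a log axis; points are means and bars are SDs of 3 libraries, green for Mediator and purple for TFIID and Taf12L. MED26 leads at both stages (270 and 289 TPM) and Taf12L is last, while Tbp (124 and 34.6 TPM) and skd (186 and 75.0 TPM) move down the order.

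The order changed by cycle 14. In WT the second rank then belonged to Taf4, a TFIID subunit that activators contact, at 159 ± 26.8 TPM, ahead of MED21 at 154 ± 13.5 TPM, and these neighbours do not differ beyond their spread. Tbp went from place 6, at 124 ± 1.92 TPM, to place 32, at 34.6 ± 1.66 TPM. Levels in TPM are compared here between genes of one library, since their scale depends on the other RNAs present.

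The first comparison asks how the maternal load of subunit transcripts changed by zygotic genome activation in WT. Most TFIID genes rose, while Mediator split evenly. Of the 13 TFIID genes 10 rose (Taf1, Taf2, Taf4, Taf6, Taf7, Taf10, Taf10b, Taf11, Taf12 and Taf13), 2 fell (Tbp and Taf8) and Taf5 did not pass. Of the 28 Mediator genes 13 rose, 13 fell and 2 did not pass. In whole embryos, fewer cells of a type and less RNA per cell cannot be told apart. A gene passed when its Benjamini-Hochberg adjusted p in edgeR's quasi-likelihood test, adjusted over all 8467 genes, was under 0.05. Over all members 23 rose (54.8%) and 15 fell (35.7%), beside 45.6% and 41.4% of all genes tested. At a change of at least 2-fold, 4 members rose and 8 fell (9.52% and 19.0%), beside 21.0% and 29.8% of all genes. The median log2 fold change was 0.73 for TFIID and -0.03 for Mediator, beside 0.13 for all genes. Scaling by relative log expression (RLE) moved the median of all genes to 0.39 and the split to 26 higher and 13 lower, and under it the falls of MED1 and MED8 no longer passed.

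The members that fell furthest were MED19, MED20 and Taf8. MED19, a middle-module subunit that in Drosophila also serves as a cofactor of Hox proteins, was at 144, 157 and 154 CPM before cycle 9 and at 41.6, 42.2 and 44.6 CPM at cycle 14. The groups do not overlap, and the change was -1.82 ± 0.05 on the log2 scale (standard error, adjusted p = 1.1e-14). MED20, which sits with MED18 in the head, fell by 1.67 ± 0.15 (adjusted p = 2.18e-08), and MED18 itself by 1.19 ± 0.13 (adjusted p = 1.55e-07). Taf8, which pairs with Taf10 through histone folds, fell from 35.8, 40.3 and 37.8 CPM to 13.9, 15.0 and 11.5 CPM. That is a change of -1.49 ± 0.10 (adjusted p = 5.06e-10), opposite in sign to its partner Taf10, which rose by 0.83 ± 0.12 (adjusted p = 7.2e-06).

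Tbp was, with Taf8, one of the TFIID genes that fell. Its libraries read 79.7, 84.0 and 84.2 CPM before cycle 9 and 31.3, 30.2 and 30.6 CPM at cycle 14. All 3 late libraries lie far below the early ones, with a log2 fold change of -1.43 ± 0.06 (adjusted p = 4.1e-13). Taf1, the largest Taf and the scaffold of TFIID, went the other way, from 303, 310 and 306 CPM to 456, 556 and 564 CPM, a rise of 0.78 ± 0.07 (adjusted p = 1.29e-08). Of the TBP-related factors, Trf2 rose by 0.91 on the log2 scale (adjusted p = 1.53e-11 in edgeR) and Trf had a log2 fold change of 0.15 (adjusted p = 0.224).

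Among the members that rose, MED9, MED11 and MED23 changed most. MED11 of the head went from 8.89, 9.88 and 9.78 CPM to 31.0, 28.7 and 30.3 CPM, a rise of 1.65 ± 0.10 on the log2 scale (adjusted p = 8.42e-11). MED23 of the tail rose by 1.21 ± 0.07 (adjusted p = 3.23e-11). The value of MED9 is uncertain. All 871 bases of its exons lie within those of CG42518 on the same strand, and its estimated counts lay more than 0.01 from a whole number in 94.4% of libraries. MED9 rose by 3.57 ± 0.65 (adjusted p = 7.84e-05) from 0, 4.83 and 3.63 CPM to 41.7, 28.5 and 32.0 CPM, while CG42518 fell from 27.4, 28.9 and 28.4 CPM to 15.8, 17.2 and 17.4 CPM. Summed as 1 gene, a choice made after seeing the data, the pair stood at 31.0 ± 3.25 CPM and 50.9 ± 6.05 CPM, a rise of 0.70 ± 0.10 (adjusted p = 4.52e-06).

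**Figure D2:**
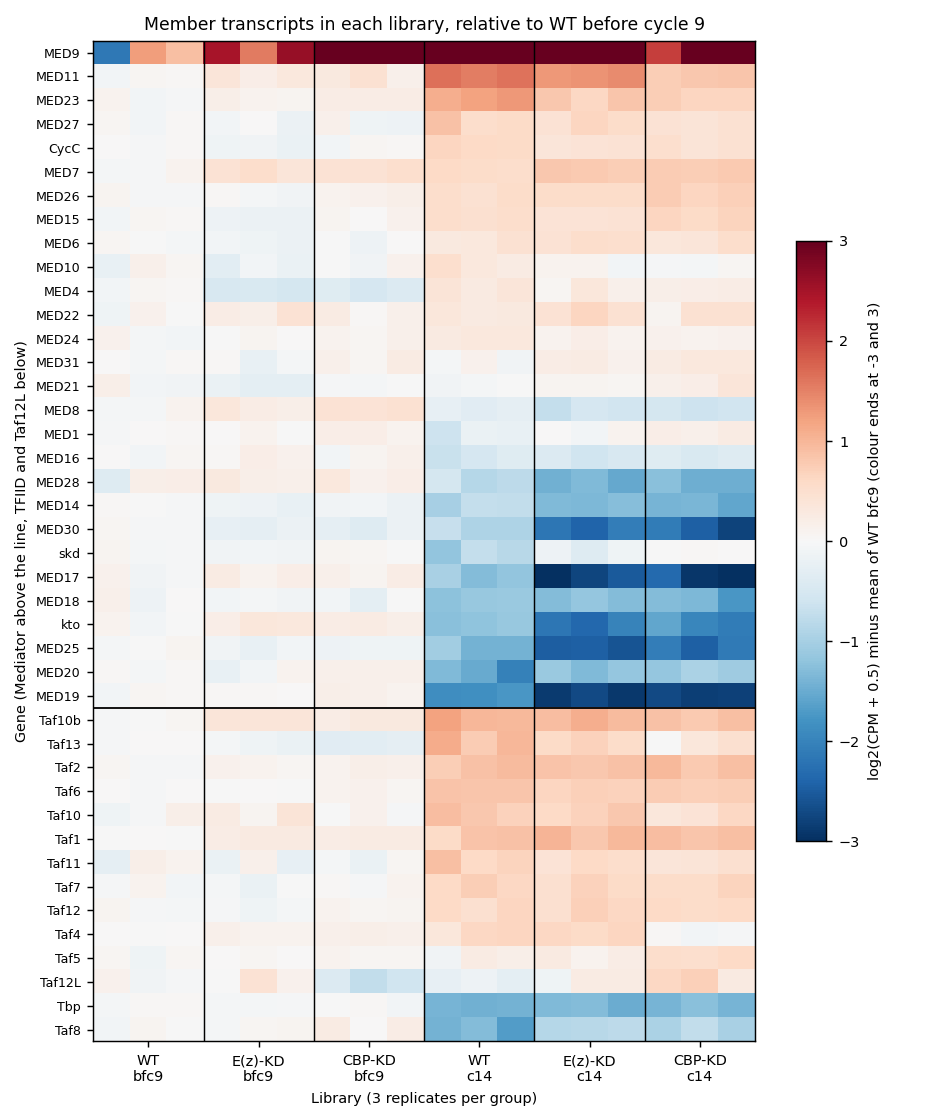
Each row is a gene and each column a library; colour is the log2 of CPM + 0.5 minus the mean of the 3 WT libraries before cycle 9, red for higher and blue for lower, with rows ordered by the change in WT. At cycle 14 the lower Mediator rows are blue and most TFIID rows are red, and the blue deepens in both knockdowns for MED17, MED19, MED25, MED30 and kto but fades for skd.

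The head, middle, tail and kinase modules of Mediator each held genes that rose and genes that fell. Of all genes tested, 45.6% rose and 41.4% fell in this comparison. In the head 3 genes rose (MED6, MED11 and MED22) and 4 fell (MED8, MED17, MED18 and MED20). In the middle 5 rose and 2 fell, and in the tail 4 rose (MED15, MED23, MED24 and MED27) and 4 fell (MED16, MED25, MED28 and MED30). MED14, the scaffold that holds the modules together, went from 316, 306 and 300 CPM to 153, 188 and 184 CPM and fell by 0.81 ± 0.07 (adjusted p = 5.07e-09). In the kinase module CycC rose by 0.61 ± 0.05 (adjusted p = 8.53e-09), while kto fell by 1.20 ± 0.11 (adjusted p = 1.6e-08), skd by 0.90 ± 0.09 (adjusted p = 8.12e-08) and the kinase Cdk8 by 0.97 (adjusted p = 0.000215 in edgeR). The 3 subunits outside the rule other than Cdk8 (ix, e(y)1 and bip2) rose.

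Neither length nor abundance followed the split closely. Across the 42 genes, Spearman's rho between the WT change and the exon length (560 to 12307 bases) was -0.206, and between the change and the early TPM level it was -0.167. Both are descriptions over genes that share the same 6 libraries. The members lie on 6 chromosome arms, with 14 on 3L, 11 on 3R, 7 on 2L, 6 on 2R, 3 on X and 1 on chromosome 4. The exons of 19 members overlap those of a gene on the opposite strand, which reaches 26.6% of the exon length for MED21 and 22.6% for MED24. The libraries were stranded, but whether the counting used strand is not given in the sources used here, so reads of such partners may not be separated.

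Before cycle 9 few subunit transcripts differed in the knockdowns, with shares near those of all genes. In E(z)-KD 7 of 42 members were higher and 4 lower (16.7% and 9.52%), beside 18.5% and 15.5% of all genes tested. In CBP-KD 10 were higher and 2 lower (23.8% and 4.76%), beside 24.1% and 7.42%. Both comparisons use the same WT libraries. RLE scaling gave 6 higher and 6 lower for E(z)-KD and 5 and 3 for CBP-KD, and library size alone gave 3 and 4 for CBP-KD. Without replicate 1 or replicate 3 of E(z)-KD the counts were 4 and 3 in each case, without replicate 2 of CBP-KD they were 6 and 1, and without replicate 3 of CBP-KD, in which zygotic markers were highest, they were 9 and 1.

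The largest fitted early changes were in MED9, whose counts are uncertain. It read 0, 4.83 and 3.63 CPM in WT, 11.9, 6.05 and 13.2 in E(z)-KD and 19.0, 21.6 and 23.9 in CBP-KD, at log2 fold changes of 1.87 ± 0.63 (adjusted p = 0.0304) and 2.92 ± 0.64 (adjusted p = 0.00226). The E(z)-KD call was lost without replicate 3 of WT (adjusted p = 0.0526) or replicate 1 or 3 of E(z)-KD (adjusted p = 0.0751 and 0.0978). Summed with CG42518, the values were 0.00 ± 0.10 (adjusted p = 1.0) and 0.33 ± 0.10 (adjusted p = 0.0175).

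MED7, which forms the hinge of the middle module with MED21, read 33.4, 34.0 and 37.7 CPM in WT, 47.6, 50.6 and 44.8 in E(z)-KD and 47.2, 47.1 and 49.7 in CBP-KD. Both knockdowns lie above WT with no overlap, by 0.44 ± 0.05 (adjusted p = 7.22e-06) and 0.45 ± 0.06 (adjusted p = 1.02e-05) on the log2 scale. MED4 was lower in both, by log2 fold changes of -0.50 ± 0.09 (adjusted p = 0.000288) and -0.44 ± 0.09 (adjusted p = 0.00117). MED21 and MED15 were lower in E(z)-KD, by -0.26 ± 0.07 (adjusted p = 0.00535) and -0.17 ± 0.04 (adjusted p = 0.00676). MED8 and Taf10b were higher in both knockdowns. MED8 was at 0.43 ± 0.07 in CBP-KD (adjusted p = 0.000212) and at 0.25 in E(z)-KD, where it also passed. Taf10b was at 0.37 ± 0.07 in E(z)-KD (adjusted p = 0.000603) and at 0.27 in CBP-KD (adjusted p = 0.0084). The latter did not pass with library size alone (adjusted p = 0.131). kto was higher in E(z)-KD by 0.29 ± 0.10 (adjusted p = 0.033), a call that was lost under RLE scaling (adjusted p = 0.0759) and without replicate 2 or 3 of either group (adjusted p = 0.0839 to 0.119). CycC was at -0.15 ± 0.05 in E(z)-KD (adjusted p = 0.0278), a call lost without replicate 1 or 3 of either group (adjusted p = 0.0512 to 0.117). Taf1 was higher in both knockdowns, by 0.26 in E(z)-KD (adjusted p = 0.00647) and 0.24 in CBP-KD (adjusted p = 0.0127). The latter did not pass with library size alone (adjusted p = 0.145). MED17, MED14, skd and Tbp did not pass in either knockdown before cycle 9.

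At cycle 14 the depletions were followed by lower levels of one set of subunit transcripts, led by MED17 and MED30, and higher levels of another, led by skd and Taf8. In E(z)-KD 15 of 42 members were lower than in WT and 7 higher (35.7% and 16.7%), beside 31.5% and 32.5% of all genes. In CBP-KD 19 were lower and 11 higher (45.2% and 26.2%), beside 31.8% and 35.4%. At 2-fold or more, 4 members were lower in E(z)-KD (9.52%, beside 13.0% of all genes), and in CBP-KD MED17 and MED30 were lower and Taf12L higher (4.76% and 2.38%, beside 15.2% and 12.0%). The median log2 fold change of the members was -0.10 for E(z)-KD and -0.15 for CBP-KD, beside -0.03 and 0.01 over all genes. The 2 comparisons share their WT libraries, so that the values below are set side by side. The split depends on the scaling. Under RLE scaling the median of all genes moved to -0.21 and -0.16, and the members split into 25 lower and 2 higher (skd and Taf8) in E(z)-KD and 25 lower and 6 higher in CBP-KD. Without replicate 1 of WT, the shallowest library, 12 were lower and 5 higher in E(z)-KD, and 16 and 11 in CBP-KD. Because the counts are relative to each library's RNA, less transcript per embryo and a larger pool of other RNA cannot be told apart.

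**Figure D3:**
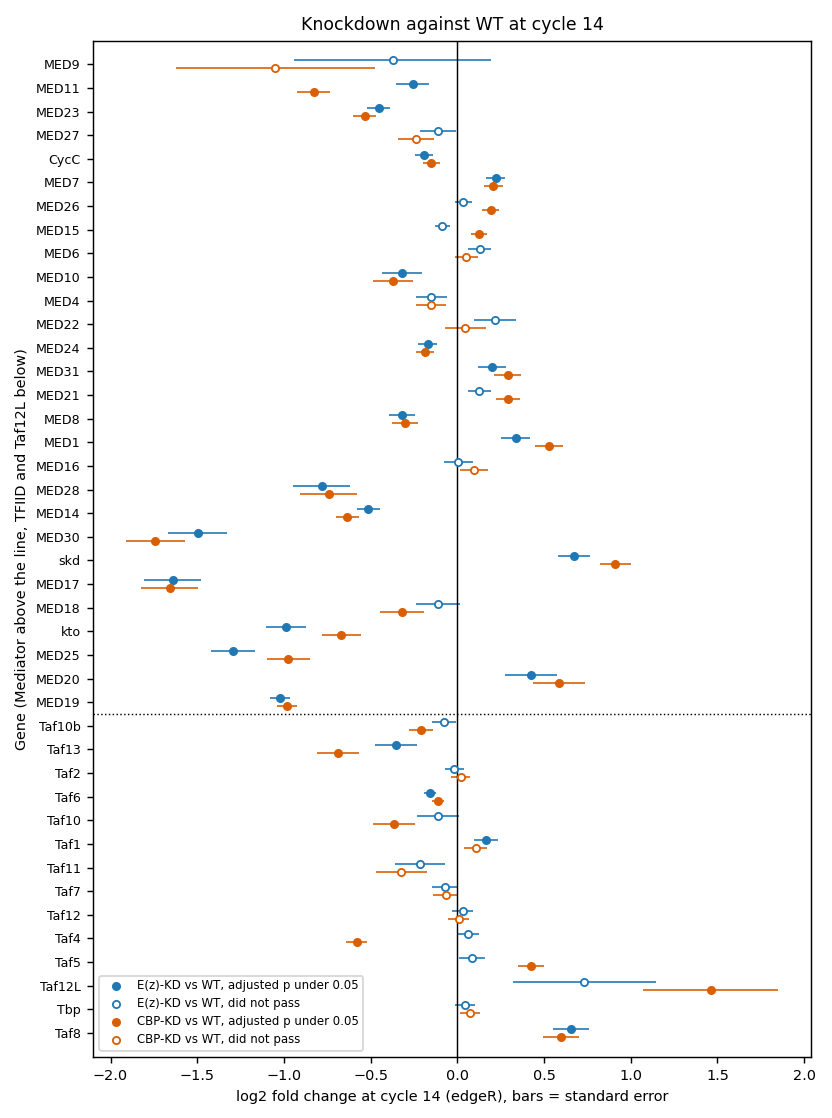
Log2 fold change of each gene in E(z)-KD (blue) and CBP-KD (orange) against the same WT libraries at cycle 14, with standard errors; filled points passed at adjusted p under 0.05 and open points did not. MED17 and MED30 lie furthest to the left in both knockdowns (-1.64 and -1.50 in E(z)-KD), skd and Taf8 lie to the right, and most TFIID genes lie near 0.

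The lowest values relative to WT were in MED17 and MED30. MED17, the central subunit of the head, read 27.3, 21.4 and 23.3 CPM in WT at cycle 14, 6.39, 7.59 and 9.0 in E(z)-KD, and 10.2, 6.71 and 5.87 in CBP-KD. Every knockdown library lies below every WT library, at log2 fold changes of -1.64 ± 0.16 (adjusted p = 2.74e-07) and -1.66 ± 0.16 (adjusted p = 1.86e-07). Before cycle 9 the same gene read 59.3, 49.9 and 52.8 CPM in WT and 57.2 to 63.8 CPM in the knockdowns, which overlap WT. From one stage to the next it changed on the log2 scale by -1.18 ± 0.15 in WT, -3.0 ± 0.16 under E(z) depletion and -2.99 ± 0.16 under CBP depletion.

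MED30, a subunit of metazoan Mediator, was also lower. Its WT libraries at cycle 14 read 10.1, 8.52 and 8.54 CPM, E(z)-KD 3.32, 2.72 and 3.54, and CBP-KD 3.46, 2.65 and 2.0. With no overlap, the log2 fold changes were -1.50 ± 0.17 (adjusted p = 1.05e-06) and -1.74 ± 0.17 (adjusted p = 1.7e-07). Unlike MED17, MED30 already read below WT before cycle 9. It was at 16.1 to 17.4 CPM in WT, 13.6 to 14.6 in E(z)-KD and 12.6 to 14.6 in CBP-KD. Neither early difference passed. MED25 was at -1.29 ± 0.13 (adjusted p = 2.23e-07) in E(z)-KD and -0.97 ± 0.12 (adjusted p = 3.87e-06) in CBP-KD, and MED19 at -1.02 ± 0.06 (adjusted p = 5.77e-10) and -0.98 ± 0.06 (adjusted p = 5.81e-10). MED28 and MED14 were lower by smaller amounts, MED28 at -0.78 and -0.74 and MED14 at -0.51 and -0.64. These genes fell in WT between the stages. Others that were lower in CBP-KD had risen in WT, among them MED11 (-0.83 from WT at cycle 14, adjusted p = 1.29e-06) and Taf13 (-0.69, adjusted p = 0.000101). The maternal markers as a group stood above WT in the same libraries, and a link to any of these genes was not tested.

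Other members that fell in WT stood above WT in the knockdowns. Both kinds of change use the WT libraries of cycle 14. skd, the docking subunit of the kinase module, read 481, 663 and 616 CPM in WT at cycle 14, 990, 829 and 993 in E(z)-KD, and 1090, 1118 and 1105 in CBP-KD. The groups do not overlap, and the log2 fold changes were 0.67 ± 0.09 (adjusted p = 7.15e-06) and 0.91 ± 0.09 (adjusted p = 2.04e-07). Without replicate 1 of WT, which is the lowest, they were 0.55 and 0.79. The early level was 1014 to 1152 CPM over all 9 libraries, so that CBP-KD stayed there (stage change -0.03 ± 0.09, adjusted p = 0.776) while WT fell. Taf8 read 20.8, 21.0 and 21.8 CPM in E(z)-KD and 19.4, 22.5 and 19.2 in CBP-KD against the 11.5 to 15.0 CPM of WT, higher by 0.65 ± 0.10 (adjusted p = 3.97e-05) and 0.60 ± 0.10 (adjusted p = 8.8e-05). MED1, the subunit that nuclear receptors bind, was higher by 0.34 ± 0.08 (adjusted p = 0.00223) and 0.53 ± 0.08 (adjusted p = 3.6e-05), the former not passing under RLE scaling (adjusted p = 0.0947). MED20 was at 0.42 ± 0.15 (adjusted p = 0.0227, replicates overlapping) and 0.59 ± 0.15 (adjusted p = 0.00286), and the former did not pass under RLE scaling either (adjusted p = 0.173). These 4 genes were picked because they fell in WT and stood above WT in the knockdowns. That they share the direction of the maternal markers follows from this choice, and a link was not tested.

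The kinase module held both kinds of gene. kto, the partner of skd, read 66.2, 68.8 and 72.9 CPM in WT at cycle 14, 35.1, 31.0 and 39.2 in E(z)-KD and 53.9, 40.8 and 36.7 in CBP-KD. It was lower in both without overlap, by log2 fold changes of -0.99 ± 0.11 (adjusted p = 1.4e-06) and -0.67 ± 0.11 (adjusted p = 6.41e-05). Per length, kto stood at 0.231 ± 0.00456 of skd in WT before cycle 9 and at 0.190 ± 0.0268 in WT at cycle 14, against 0.0593 ± 0.00317 for E(z)-KD and 0.0629 ± 0.0136 for CBP-KD at cycle 14 (SD, n = 3; exact permutation test, two-sided, p = 0.1 for each, the smallest that 3 against 3 allows, so that no ratio compared here could pass 0.05). The ratio was not planned in advance, and it restates the opposite changes of kto and skd. Cdk8 read 12.6, 10.7 and 9.88 CPM in WT, 4.07, 4.52 and 3.26 in E(z)-KD and 5.30, 3.43 and 2.42 in CBP-KD, lower by log2 fold changes of -1.48 (adjusted p = 1.12e-05 in edgeR) and -1.58 (adjusted p = 5.09e-06 in edgeR). CycC, at 53.2 to 56.4 CPM in WT and 46.1 to 51.0 CPM in the knockdowns, was at -0.19 ± 0.05 (adjusted p = 0.00363) and -0.15 ± 0.05 (adjusted p = 0.0158), and the latter did not pass with library size alone (adjusted p = 0.0753), without replicate 1 of WT (adjusted p = 0.0624) or without replicate 2 of CBP-KD (adjusted p = 0.079).

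**Figure D4:**
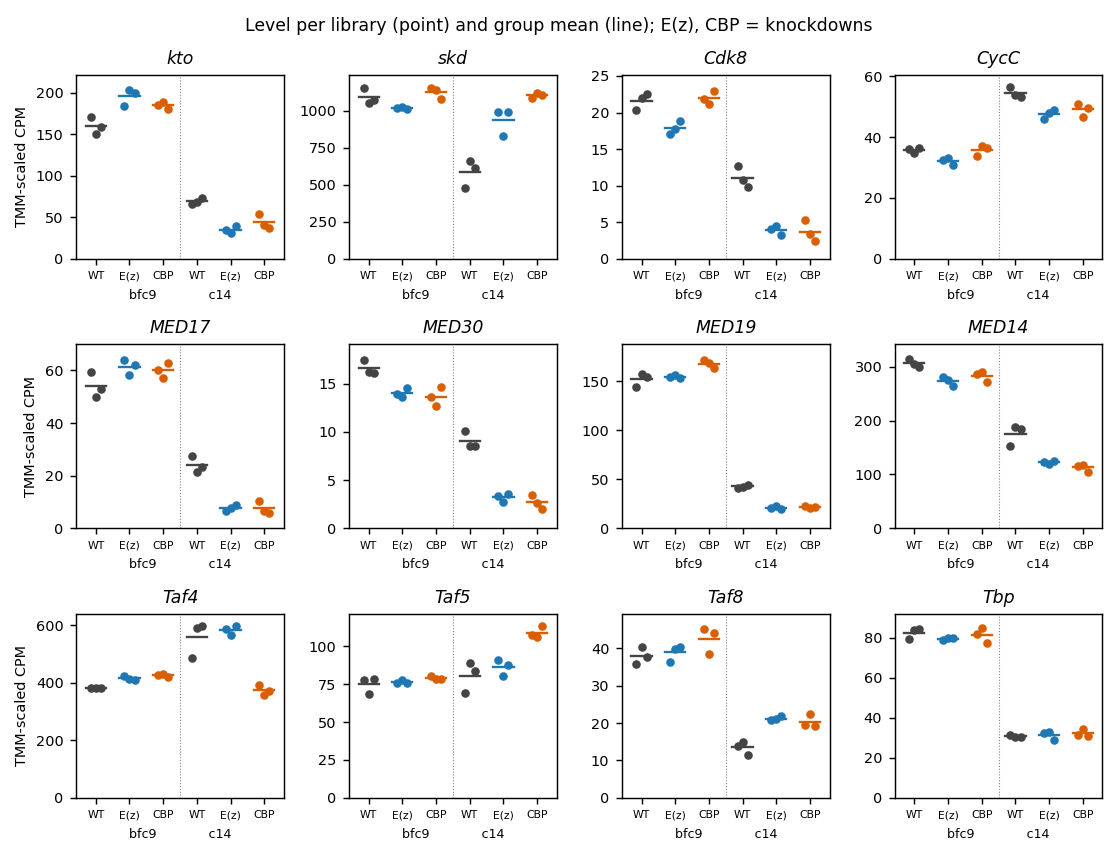
CPM of 12 genes in every library (points) with group means (lines), before cycle 9 on the left of each panel and cycle 14 on the right, WT grey, E(z)-KD blue and CBP-KD orange; each axis starts at 0. kto, Cdk8, MED17, MED30 and MED19 lie lower in both knockdowns than in WT at cycle 14, skd and Taf8 lie higher, Taf4 is low and Taf5 high in CBP-KD, and Tbp lies between 29.1 and 34.2 CPM in all 9 late libraries.

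Of the 13 TFIID genes 4 passed for E(z)-KD and 7 for CBP-KD at cycle 14. Of all genes tested, 32.5% were higher and 31.5% lower for E(z)-KD, and 35.4% and 31.8% for CBP-KD. Taf1 and Taf8 were higher and Taf6 and Taf13 lower with E(z) depleted. With CBP depleted, Taf5 and Taf8 were higher and Taf4, Taf6, Taf10, Taf10b and Taf13 lower. The value of Taf1 in E(z)-KD, 0.16 ± 0.07 (adjusted p = 0.0424), turned to -0.02 under RLE scaling and did not pass without replicate 1 of WT (adjusted p = 0.219) or without replicate 1 or 3 of E(z)-KD (adjusted p = 0.166 and 0.118). Tbp read 31.3, 30.2 and 30.6 CPM in WT, 32.6, 33.0 and 29.1 in E(z)-KD and 31.3, 34.2 and 31.0 in CBP-KD. These overlap, with log2 fold changes of 0.04 ± 0.06 (adjusted p = 0.525) and 0.07 ± 0.06 (adjusted p = 0.288).

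The knockdowns were compared directly at cycle 14. Of the 42 members 5 were higher in CBP-KD than in E(z)-KD and 3 lower (11.9% and 7.14%), beside 19.0% and 22.2% of all genes tested. Among the 8 that passed, the largest difference was in Taf4, at 587, 567 and 595 CPM in E(z)-KD and 391, 358 and 371 in CBP-KD, with WT at 486, 590 and 597. CBP-KD lies below both other groups, by -0.64 ± 0.06 from E(z)-KD (adjusted p = 5.03e-07) and -0.58 ± 0.06 from WT (adjusted p = 3.86e-07), while E(z)-KD was at 0.06 ± 0.06 from WT (adjusted p = 0.384). Taf5, a scaffold Taf with WD40 repeats, went the other way, at 107, 106 and 114 CPM in CBP-KD against 90.9, 80.5 and 87.6 in E(z)-KD and 69.4, 89.0 and 83.8 in WT. It was higher by 0.34 ± 0.07 than in E(z)-KD (adjusted p = 0.00164) and by 0.42 ± 0.08 than in WT (adjusted p = 0.00012). Per length, the ratio of Taf4 to Taf5 was 2.96 ± 0.112 in WT, 2.90 ± 0.125 for E(z)-KD and 1.47 ± 0.0812 for CBP-KD (exact permutation test, two-sided, p = 0.6 and p = 0.1 against WT, n = 3). This ratio was not planned in advance, and it restates the opposite changes of Taf4 and Taf5.

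MED11 showed a graded difference. It read 31.0, 28.7 and 30.3 CPM in WT, 24.0, 25.0 and 26.3 in E(z)-KD and 16.3, 17 and 17.3 in CBP-KD. The 3 groups are separate, with CBP-KD below E(z)-KD by -0.57 ± 0.10 on the log2 scale (adjusted p = 0.000183), and before cycle 9 both knockdowns had stood above WT (0.31 ± 0.10 and 0.33 ± 0.10, adjusted p = 0.021 and 0.0178, the latter not passing under RLE scaling at adjusted p = 0.0501). MED15 was higher in CBP-KD by 0.21 ± 0.04 (adjusted p = 0.0011) and MED26 by 0.16 ± 0.05 (adjusted p = 0.0148). The remaining calls are weak. Taf13 (-0.34 ± 0.12, adjusted p = 0.0335), kto (0.32 ± 0.11, adjusted p = 0.0337, replicates overlapping) and skd (0.24 ± 0.09, adjusted p = 0.0435) each lost the call in at least 4 of the alternatives tried. Without replicate 2 of E(z)-KD their adjusted p were 0.102, 0.157 and 0.211, and without replicate 1 of CBP-KD they were 0.156, 0.207 and 0.0692. For skd the call was also lost without replicate 2 or 3 of CBP-KD (adjusted p = 0.0911 and 0.0818), and for Taf13 and kto without replicate 1 of E(z)-KD (adjusted p = 0.0558 and 0.0721). Without replicate 2 of E(z)-KD 4 members passed in place of 8, and without replicate 1 of CBP-KD 5.

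Whether the depletion effects differed between the stages was tested as an interaction, the stage change in a knockdown minus that in WT. For E(z)-KD 14 of 42 members passed with a lower and 6 with a higher value (33.3% and 14.3%), beside 17.6% and 23.4% of all genes. For CBP-KD 16 were lower and 6 higher (38.1% and 14.3%), beside 26.5% and 21.7%. The split again depends on scaling: RLE gave 18 lower and 3 higher for E(z)-KD and 22 and 2 for CBP-KD, and library size alone gave 13 and 13 for CBP-KD. MED17 had interactions of -1.82 ± 0.21 (adjusted p = 3.81e-06) and -1.81 ± 0.21 (adjusted p = 3.34e-06), and kto of -1.28 ± 0.15 (adjusted p = 4.54e-06) and -0.88 ± 0.15 (adjusted p = 0.000141). MED30 was at -1.26 ± 0.23 (adjusted p = 0.000285) and -1.46 ± 0.23 (adjusted p = 6.51e-05). skd was at 0.77 ± 0.13 (adjusted p = 0.000109) and 0.87 ± 0.13 (adjusted p = 3.09e-05). Taf8 was at 0.62 ± 0.14 (adjusted p = 0.00179) and 0.43 ± 0.14 (adjusted p = 0.0178), and the latter did not pass under RLE scaling (adjusted p = 0.0727), without replicate 3 of WT (adjusted p = 0.0536) or without replicate 2 of CBP-KD (adjusted p = 0.052), all of cycle 14. MED21 of the middle module was at 0.39 ± 0.09 (adjusted p = 0.00324) for E(z)-KD. MED9 passed in both, but for E(z)-KD the call was lost without any 1 of 9 of the 12 libraries (adjusted p = 0.0505 to 0.0993), and with its counts summed with those of CG42518 neither interaction passed (adjusted p = 0.462 and 0.0589).

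The paralogue pairs divided as follows. Taf10b (2L:2767286-2767845, minus strand) and Taf10 (2L:2767890-2768612, plus strand) lie head to head with 44 bases between them. Taf10b read 19.6, 20.1 and 21.1 CPM before cycle 9 and 47.6, 41.2 and 40.3 CPM at cycle 14 in WT, and rose by 1.08 ± 0.07 on the log2 scale (adjusted p = 3.13e-10). Taf10 read 12.1, 13.1 and 15.2 and then 25.9, 23.9 and 22.1 CPM. Both rose, and neither overlaps between the stages. Of the summed TPM of the pair, Taf10b made up 64.1% ± 1.76 before cycle 9 and 68.0% ± 0.782 at cycle 14 in WT, and between 66.0% and 70.3% in the means of the knockdown groups. In CBP-KD at cycle 14 both genes were lower than in WT, Taf10 by -0.37 ± 0.12 (adjusted p = 0.0131) and Taf10b by -0.21 ± 0.07 (adjusted p = 0.0136). Without replicate 1 of WT neither passed (adjusted p = 0.052 and 0.083), nor did Taf10 without replicate 1 (adjusted p = 0.0539) or Taf10b without replicate 2 of CBP-KD (adjusted p = 0.0585).

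Taf12, the partner of Taf4 in TFIID, read 61.6, 57.0 and 55.4 CPM before cycle 9 and 87.9, 81.2 and 90.8 CPM at cycle 14 in WT. It rose by 0.58 ± 0.06 (adjusted p = 1.72e-07) and did not pass in either knockdown at either stage. Taf12L had 9, 7 and 8 counts in WT, 8, 12 and 10 in E(z)-KD and 3, 1 and 2 in CBP-KD before cycle 9, and 2, 5 and 3, then 6, 11 and 9, then 14, 21 and 11 at cycle 14. CBP-KD is thus the lowest group early and the highest late. The ratio of CBP-KD to WT was 0.316 (95% exact interval for counting error only, 0.106 to 0.794) before cycle 9 and 2.80 (1.39 to 6.22) at cycle 14. Both passed in edgeR (adjusted p = 0.021 and 0.0036) but not with DESeq2 (adjusted p = 0.0699 and 0.0533), and the early difference did not pass without replicate 1 of WT or replicate 2 or 3 of CBP-KD (adjusted p = 0.0683, 0.109 and 0.0684). The 12 testis markers, among them Taf12L itself, summed to 40.2 to 42.5 CPM in WT and 85.7 to 90.5 CPM in CBP-KD before cycle 9, and to 10.9 to 11.8 and 35.1 to 38.2 CPM at cycle 14, with 2 or 3 of the 12 reaching 1 CPM.

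Other lists of the transcription machinery were counted in the same way. For the WT stage change, 45.6% of all genes tested rose and 41.4% fell, with a median log2 fold change of 0.13. Of 12 RNA polymerase II subunits 10 rose in WT between the stages and 1 fell (Rpb8), with a median log2 fold change of 0.80. Of 17 other general factors tested 8 rose and 7 fell, and the largest falls were in subunits of TFIIH: Mat1 (-3.65), CycH (-2.44), mrn (-2.18) and Tfb1 (-1.76). TFIIH did not move as a whole. Its subunit Xpd also fell, but Tfb4 and Tfb5 rose, and hay and Ssl1 did not pass. Mat1 and CycH are the partners of Cdk7, the kinase of TFIIH, as CycC is of Cdk8, and Cdk7 fell by 0.58 (adjusted p = 5.22e-08 in edgeR). Against WT at cycle 14, Nelf-A, of the pausing factor NELF, was at -0.90 for E(z)-KD and -1.36 for CBP-KD, and CycT, the cyclin of the elongation kinase P-TEFb, at -0.66 and -1.69 (adjusted p at most 2.24e-06 in edgeR for these 4 values). Nelf-A and CycT do not stand for their list. NELF-B read 59.9 to 70.7 CPM in WT, 78.7 to 80.3 in E(z)-KD and 87.0 to 91.2 in CBP-KD. Nelf-E likewise stood higher, at 27.0 to 33.7, 39.1 to 41.4 and 40.9 to 45.0 CPM. TH1 of the same list stood lower, at 172 to 180, 160 to 163 and 155 to 166 CPM. Of the 39 tested genes of the RNA polymerase II, general factor and elongation lists, E(z)-KD had 12 above and 11 below WT, and CBP-KD 10 and 12. Of all genes tested, 32.5% were above and 31.5% below WT for E(z)-KD, and 35.4% and 31.8% for CBP-KD.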

How the data were processed

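Reads of ribosomal-RNA-depleted, stranded total RNA libraries were mapped by the authors to dm6 with STAR, with reads of many positions kept. The deposited values are estimated counts (expected counts), 1 for each gene in each library, unnormalized and not pooled. STAR was run with its gene-count and transcriptome outputs on, but the annotation and the step that gave counts that are not whole are not given in the sources used here. Of the values, 2.9% lay more than 0.01 from a whole number, and all were rounded. ERCC spike-ins were not used here, so every level is relative to its library. No column of authors' comparisons was used.

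Differences were tested in R 4.3.3 using edgeR 4.0.16 and limma 3.58.1: TMM factors, filterByExpr by group, 1 mean for each of 6 groups, 12 residual degrees of freedom, a quasi-likelihood F test, and Benjamini-Hochberg adjustment over 8467 genes. The common biological coefficient of variation was 0.115. Standard errors are the absolute log2 fold change over the square root of F. A gene passed at adjusted p under 0.05. CPM are TMM-scaled. TPM used the union of annotated exons. The script was tested on simulated data for CBP-KD against WT at cycle 14. It recovered 60 of 100 changes of 0.5 on the log2 scale and 88 of 100 changes of 1. It also called 5 unchanged genes.

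Members and gene lists were chosen with earlier results of these data known. Genes named with values were the targets, Tbp, Taf1, Taf4, MED14, MED17, kto, skd, CycC and the paralogue pairs. Added to these were, per comparison, the 3 largest rises and falls among members that passed without overlapping replicates. The others with values (among them MED18, MED26, MED28 and Cdk8) were chosen after their values were seen. So were values of genes that this rule named only in another comparison, such as MED1, MED20 and MED25. Replicate numbers were checked for pairing. Same-numbered libraries correlated at -0.0111 on average in their deviations from the group means. The value for others, 0.00558, largely follows from this, as deviations cancel within a group, and is no separate reference. No pair of groups had every same-numbered correlation over 0.1, so the numbers were not taken as pairs. The alternatives were RLE factors, library size only, DESeq2 1.42.0, other count filters, only the groups compared, a replicate block, each library left out, a 2-fold threshold and the longest transcript for TPM. Tables were read and figures drawn in Python.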

Additional observations from a re-analysis of the deposited data

Results flagged for a closer look

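The depletion effect differed between the stages, by the interaction test in edgeR, for 20 members in E(z)-KD and for 22 in CBP-KD. Of all genes tested, 17.6% passed below zero and 23.4% above for E(z)-KD, and 26.5% and 21.7% for CBP-KD. The values below are log2 interactions (the stage change in the knockdown minus that in WT). The 14 below zero for E(z)-KD were MED9 (-2.24, uncertain through its overlap with CG42518), MED17 (-1.82), kto (-1.28), MED30 (-1.26), MED25 (-1.15), MED19 (-1.05), MED28 (-0.97), MED8 (-0.57), MED23 (-0.57), MED11 (-0.57), Taf10b (-0.44), MED14 (-0.35), MED7 (-0.22) and Taf6 (-0.15). The 6 above zero for E(z)-KD were skd (0.77), Taf8 (0.62), MED21 (0.39), MED4 (0.35), MED1 (0.30) and MED6 (0.26). The 16 below zero for CBP-KD were MED9 (-3.96), MED17 (-1.81), MED30 (-1.46), MED11 (-1.16), MED19 (-1.12), MED28 (-0.94), kto (-0.88), MED25 (-0.83), MED23 (-0.76), Taf4 (-0.74), MED8 (-0.73), MED14 (-0.52), Taf10b (-0.48), MED24 (-0.29), MED7 (-0.25) and Taf6 (-0.21). The 6 above zero for CBP-KD were Taf12L (3.07, from at most 21 counts in a library), skd (0.87), Taf8 (0.43), MED1 (0.37), Taf5 (0.35) and MED21 (0.33). Under RLE scaling MED4, MED1 and MED6 did not pass for E(z)-KD (adjusted p = 0.218 to 0.303 in edgeR). The same held for Taf8, MED1, Taf5 and MED21 for CBP-KD (adjusted p = 0.0548 to 0.0761). With library size alone, MED7, Taf6 and MED9 did not pass for E(z)-KD, nor MED7, Taf6 and MED24 for CBP-KD. Groups of 3 libraries are too small for a test of single outlying libraries.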

How the results depend on the processing

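The number of members passing moved as follows. Asking for 2-fold changes as well left 12 (4 higher, 8 lower, so that falls outnumbered rises) for the WT stage change, 1 and 2 for E(z)-KD and CBP-KD before cycle 9, 4 and 3 at cycle 14, 0 for CBP-KD against E(z)-KD (8 at adjusted p alone in edgeR), and 6 for each interaction. For CBP-KD before cycle 9, library size alone gave 7 and only the groups compared gave 9 (4 higher, 5 lower), with falls then outnumbering rises. For CBP-KD against E(z)-KD, no filter and only the groups compared gave 5 each. Leaving out 1 library at a time gave 7 to 10 for each knockdown before cycle 9 and 4 to 9 for CBP-KD against E(z)-KD. The replicate block gave 7 members for that comparison (4 higher, 3 lower) and 17 for the E(z)-KD interaction, and of the named calls it removed those of skd between the knockdowns, Taf1 in E(z)-KD at cycle 14 and the E(z)-KD interaction of MED9. Of 80 named values, Taf1 in E(z)-KD at cycle 14 changed sign, to -0.0174 with RLE factors and -0.0180 with DESeq2. Summing MED9 with CG42518 removed MED9's call in E(z)-KD before cycle 9 (adjusted p = 1.0) and in both interactions. Promoter motifs were not run, as no promoter sequence was used here. Depth limits Taf12L (1 to 21 counts).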
